A study of Homo sapiens with 16 samples.

Results

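The genes described here are 59 nuclear genes for subunits of the mitochondrial respiratory chain and the ATP synthase. They were picked by symbol from the list fixed for this purpose, and all 59 were present once among the 60623 genes listed. By complex, 30 were counted with complex I, 4 with complex II, 9 with complex III, 10 with complex IV and 6 with complex V. NDUFA4 was counted with complex I by its symbol, although it is also described as a complex IV subunit. Its mean was 1312 CPM in Caco-2 and 768 CPM in HepG2. All complex I counts, medians and sums below include it, and those of complex IV do not. Messenger RNA was measured in 16 libraries, 2 in each of 8 groups, from a chip with a gut compartment of Caco-2, a human colon tumour line, and a liver compartment of HepG2, a human liver tumour line. The cells were kept in mono-culture, that is without the other line, or in co-culture with it, and either without free fatty acids (control) or with 1 mM free fatty acids (FFA), palmitic and oleic acid in a ratio of 1 to 2. The groups were thus Caco-2 mono-culture control, Caco-2 mono-culture FFA, Caco-2 co-culture control and Caco-2 co-culture FFA, and the same 4 for HepG2. The labels give 1 day of FFA, the shorter of the exposures that the study describes. All 16 sample titles also carry the prefix LTC, which the labels do not explain, and no day is given for the controls. The length of exposure in these libraries is therefore uncertain. Each organ was represented by 1 tumour line, so a difference between the lines cannot be told apart from a difference between the tissues.

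Levels are given as CPM, the reads of each gene scaled so that every library has the same total. The libraries held 49634 to 1657430 reads assigned to genes, and 1 read of the shallowest one, HepG2 co-culture FFA replicate 2, stood for 20.1 CPM. The 59 genes together took 809 reads in that library and 2392 to 32881 reads in the other 15. In that library 7 of the 59 genes had fewer than 3 reads, and NDUFA5 had none. In the other libraries every one of the 59 had at least 3 reads. Of 12 hepatocyte markers, 9 separated the lines with HepG2 on top, whereas 5 of 12 intestinal markers separated them with Caco-2 on top and the other 7 overlapped.

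The respiratory chain passes electrons from NADH (complex I) and succinate (complex II) through complex III to oxygen at complex IV, and complexes I, III and IV pump protons as they do so. Complex V, the ATP synthase, lets the protons return and makes ATP. Complexes I, III, IV and V combine subunits from nuclear genes with subunits from the mitochondrial genome, whereas complex II is wholly nuclear. Liver and gut epithelial cells both burn fatty acids in mitochondria, and the electrons so released enter the same chain. Transcription of many of the nuclear genes is known to depend on NRF1, on ETS-family factors of the GABP type and on YY1.

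The letters of these factors' sites were common at the start sites of the genes. RefSeq promoter windows (GRCh38.p14, 250 bases before to 50 bases after the start) matched 49 of the 59 genes. On either strand, GCGCATGC (NRF1) was found in 11 of the 49, or 22.4%, against 3.68% of 27305 genes with a window. CCGGAAG (the ETS core) was found in 16, or 32.7%, against 12.2%, and AAGATGG (YY1) in 12, or 24.5%, against 7.11%. The GC box GGGCGG was found in 32, or 65.3%, against 48.3%, and TATAAA in 4, or 8.16%, against 13.99%. At least 1 of the NRF1, ETS and YY1 letters stood before or just after the start of 31 of the 49 genes, or 63.3%, against 20.7% of all genes. Only 2 pairs of different motifs overlapped each other in the windows of those 49 genes. These counts are a description of the letters, not of binding.

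Printed next are the 250 bases before the start of 3 genes on which the results turn: SDHD differed most between the lines among the 59, COX7C had every FFA library below every control library in HepG2, and ATP5PO was the gene that passed the test with co-culture in Caco-2. Capitals mark the letters of the motifs named above. The stretch of SDHD lies at chr11:112086623-112086872 on the plus strand, COX7C at chr5:86617691-86617940 on the plus strand and ATP5PO at chr21:33915805-33916054 on the minus strand.
SDHD: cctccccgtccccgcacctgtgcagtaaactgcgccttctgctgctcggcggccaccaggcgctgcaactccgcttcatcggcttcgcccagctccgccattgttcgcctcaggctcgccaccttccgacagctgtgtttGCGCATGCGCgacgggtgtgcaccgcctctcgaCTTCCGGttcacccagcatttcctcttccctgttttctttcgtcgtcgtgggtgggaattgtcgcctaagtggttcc
COX7C: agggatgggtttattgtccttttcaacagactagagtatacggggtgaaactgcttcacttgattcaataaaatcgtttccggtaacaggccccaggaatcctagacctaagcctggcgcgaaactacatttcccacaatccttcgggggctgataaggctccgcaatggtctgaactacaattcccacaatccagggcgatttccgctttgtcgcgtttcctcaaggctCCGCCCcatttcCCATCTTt
ATP5PO: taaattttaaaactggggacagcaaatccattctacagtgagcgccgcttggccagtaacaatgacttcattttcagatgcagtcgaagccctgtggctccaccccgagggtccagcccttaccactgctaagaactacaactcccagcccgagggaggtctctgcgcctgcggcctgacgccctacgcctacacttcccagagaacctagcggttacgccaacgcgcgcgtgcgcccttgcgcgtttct
SDHD holds the NRF1 letters on both strands in 1 run and the ETS core after them, and COX7C holds a GC box and the YY1 letters close to its start. None of the motifs stands in the 250 bases of ATP5PO, whose YY1 letters begin 39 bases after the start.

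Summed over the 59 genes, the members made up 2.50% to 2.90% of the reads in Caco-2 and 1.63% to 2.03% in HepG2. Complex by complex, the Caco-2 libraries lay above the HepG2 libraries for complexes II, III, IV and V without overlap, and complex I overlapped. Complex IV summed to a median of 9701 CPM in Caco-2 (9162 to 10335) and 6015 CPM in HepG2 (4500 to 6550.0). Complex II summed to a median of 761 CPM in Caco-2 (611 to 899) and 297 CPM in HepG2 (262 to 338).

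**Figure D1:**
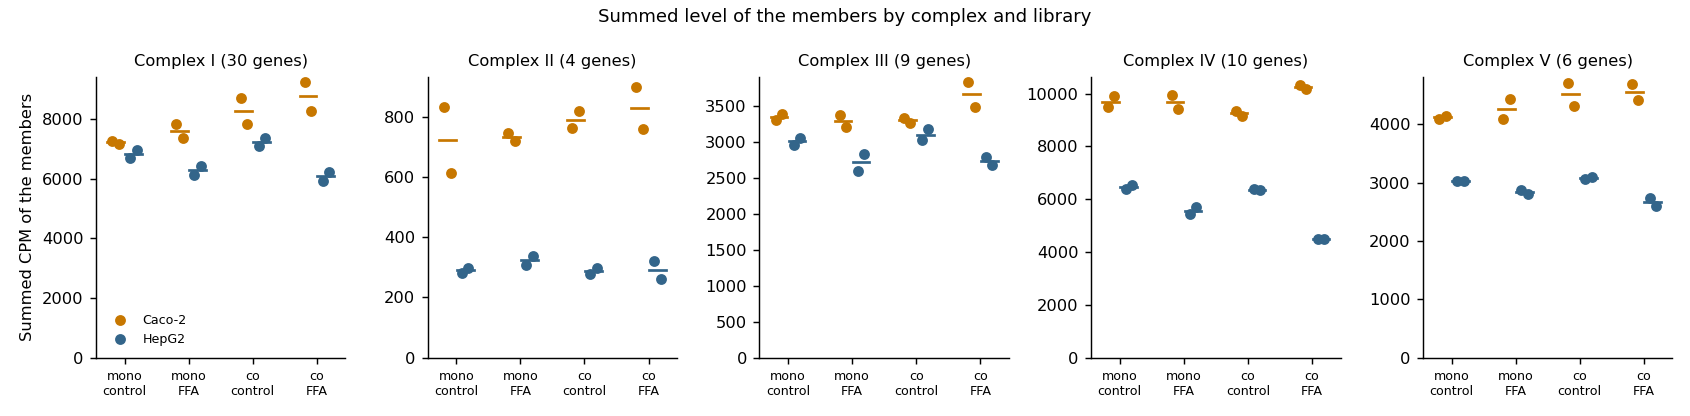
Summed CPM of the members of each complex (y axis, from 0, its own scale in each panel) in every library, by culture and treatment (x axis); points are libraries, bars the mean of the 2 replicates, orange Caco-2 and blue HepG2. HepG2 complex IV lies at 6341 to 6550.0 CPM in the 4 control libraries and at 4500 to 5690.2 CPM in the 4 FFA libraries.

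The question of how the lines differ was put to all 16 libraries at once, as the mean of the 4 HepG2 groups minus the mean of the 4 Caco-2 groups on log2(CPM + 1). SDHD, a membrane anchor of complex II, was at 350.2 to 509 CPM in Caco-2 (median 452) and 89.3 to 138 CPM in HepG2 (median 104). The ranges did not overlap, and the difference was -2.02 (SE 0.10, limma adjusted p = 1.48e-09). SDHB, the iron-sulfur subunit of complex II, was lower by a log2 difference of -1.27 (SE 0.14, limma adjusted p = 7.43e-06) and SDHA, the flavoprotein, by -0.86 (SE 0.18, limma adjusted p = 0.00223). SDHC, the other membrane anchor, had a difference of 0.01 with an SE of 0.15 and overlapping ranges. Complex II as a sum changed by -61.2% from Caco-2 to HepG2. In bulk RNA, here and in all later comparisons, a smaller share of cells with a transcript and less of it per cell cannot be told apart.

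Complex I held large differences in both directions. NDUFV1, the flavoprotein that takes electrons from NADH, was at 155 to 252 CPM in Caco-2 and 34.8 to 109 CPM in HepG2 (log2 difference -1.86, SE 0.15, limma adjusted p = 2.92e-07). NDUFA9, an accessory subunit, differed by -1.68 (SE 0.16, limma adjusted p = 1.81e-06). In the other direction, the accessory subunit NDUFA11 was at 161 to 307 CPM in Caco-2 and 499 to 692 CPM in HepG2, without overlap (1.44, SE 0.09, limma adjusted p = 2.14e-08). NDUFA13, NDUFA10 and NDUFB9 were also called higher in HepG2, by 0.70, 0.60 and 0.58 on the log2 scale. NDUFS1, the large iron-sulfur subunit, had a log2 difference of 0.01 (SE 0.14) and its sign turned under 8 of 24 alternatives.

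In complex IV, 9 of 10 members were called lower in HepG2 and none higher, against 17.9% lower and 12.5% higher of all genes tested. COX4I1, the largest nuclear subunit, was at 1405 to 1738 CPM in Caco-2 and 705 to 912 CPM in HepG2 (log2 difference -0.99, SE 0.05, limma adjusted p = 2.66e-09). COX7B was at 670.2 to 772 CPM against 252 to 379 CPM (-1.18, SE 0.07, limma adjusted p = 1.02e-08). The exception was COX5B, with a difference of -0.15. The sum of these nuclear complex IV genes differed by -41.7% from Caco-2 to HepG2.

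In complex V, 4 of 6 members were called lower, against the same 17.9% of all genes. ATP5F1B, the catalytic beta subunit, was at 623 to 865 CPM in Caco-2 and 344 to 517 CPM in HepG2 (log2 difference -0.82, SE 0.06, limma adjusted p = 2.40e-07). Its partner in the catalytic head, ATP5F1A, had a difference of 0.20 (SE 0.10, limma adjusted p = 0.158). In complex III, 6 of 9 were called lower, against the same share. Among them were CYC1, the heme-carrying cytochrome c1 (-0.85, SE 0.22), and UQCRQ (-0.62, SE 0.08). UQCRFS1, the Rieske iron-sulfur protein, had a difference of -0.20 (SE 0.15, limma adjusted p = 0.347).

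Over the 59 genes, 42 were called between the lines, 38 lower and 4 higher in HepG2. Over all 17544 genes tested, 30.3% were called, 17.9% lower and 12.5% higher. Among the 1198 genes that averaged 100 CPM or more, 482 were called lower and 422 higher. The count of calls, over the 59 and within complexes III and V, did not exceed the share called among those genes. The direction is read against their near balance. The median difference of the 59 was -0.39, against -0.09 for those 1198 genes. It was -0.31 in complex I, -1.07 in complex II, -0.30 in complex III, -0.82 in complex IV and -0.56 in complex V. These values cover nuclear genes only. The subunits encoded by the mitochondrial genome went the other way, each called higher in HepG2, from 0.86 for MT-CO1 to 2.98 for MT-CO2. MT-CYB of complex III was higher by 2.15 and MT-ATP6 of complex V by 2.03.

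**Figure D2:**
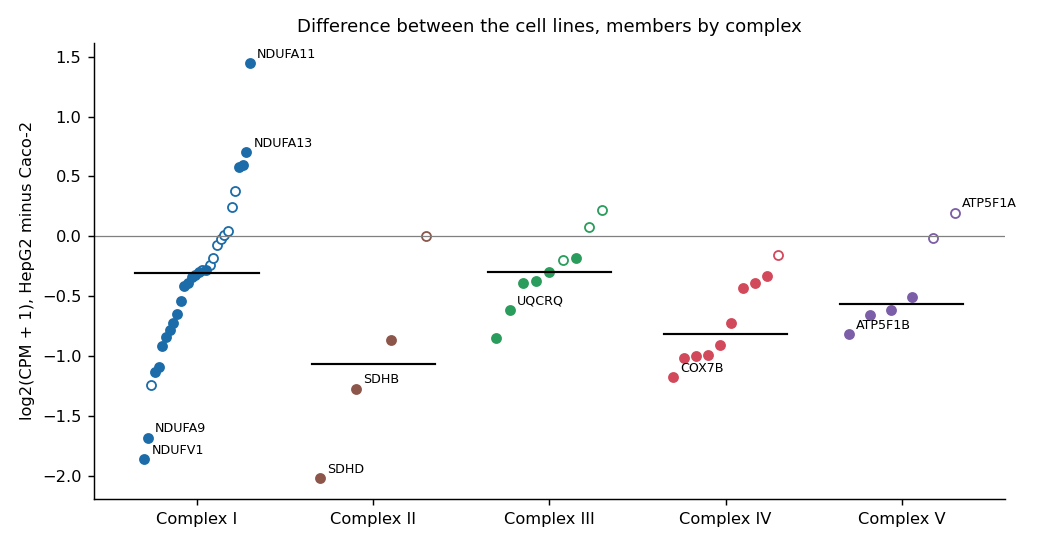
Difference between the lines on log2(CPM + 1), HepG2 minus Caco-2 (y axis), for each of the 59 genes by complex (x axis), ordered by value; filled points had a limma adjusted p under 0.05, open points did not, and black bars are medians. All 10 complex IV genes lie below 0, while complex I runs from -1.86 (NDUFV1) to 1.44 (NDUFA11).

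Whether FFA changed these genes was asked within each line. In HepG2, averaged over mono-culture and co-culture, none of the 59 passed the limma test after Benjamini-Hochberg adjustment, against 0.0762% of 14430 genes tested. The lowest p values belonged to small subunits with negative changes. COX7C, a small subunit of complex IV, was at 1337 and 1337 CPM in the mono-culture controls and 1079 and 884 CPM with FFA. In co-culture it was at 1214 and 1198 CPM in the controls and 775 and 705 CPM with FFA. The 4 FFA libraries lay below the 4 controls, and the change was -0.58 log2 units (SE 0.09, limma adjusted p = 0.0596). ATP5F1E, the epsilon subunit of the ATP synthase, was at 1804 and 1779 CPM in the mono-culture controls and 1574 and 1372 CPM with FFA. In co-culture ATP5F1E was at 1826 and 1844 CPM in the controls and 1183 and 1108 CPM with FFA. All 4 FFA libraries again lay below all 4 controls, and the change was -0.48 log2 units (SE 0.07; limma adjusted p = 0.0596).

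At an unadjusted p under 0.05, 19 of the 59 were lower with FFA in HepG2, against 7.06% of all genes tested and 225 of the 1167 genes that averaged 100 CPM or more. On the same footing 5 were higher, against 6.76% of all genes and 242 of the 1167. Of the 19, 9 were in complex IV, 6 in complex I, 3 in complex III and 1 in complex V. The 5 higher ones were UQCRFS1 (log2 change 0.84), NDUFA10 (0.53), ATP5F1A (0.43), ATP5F1B (0.36) and UQCRC2 (0.36). The split moved with the scaling: under median-ratio rescaling 32 were lower and 1 higher, the members with a positive change went from 18 to 9, and the median of complex V went from 0.24 to -0.04. UQCRFS1 was at 55.7 and 78.2 CPM in the mono-culture controls and 98.9 and 142 CPM with FFA, and at 71.2 and 88.8 CPM in the co-culture controls and 129 and 161 CPM with FFA.

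As sums, complex IV in HepG2 was at 6372 and 6550.0 CPM in the mono-culture controls and 5441 and 5690.2 CPM with FFA. In co-culture it was at 6383 and 6341 CPM in the controls and 4500 and 4513 CPM with FFA, from 662 and 224 reads. The FFA libraries lay below every control library in both cultures, with a change of -13.9% in mono-culture and -29.2% in co-culture. Averaged over culture, the sums of complexes I, III, IV and V changed with FFA by -12.01%, -10.7%, -21.9% and -9.85%, each with FFA libraries below control libraries. Under median-ratio rescaling, which placed the median of genes that averaged 100 CPM or more at -0.28, the log2 changes of these sums were -0.47, -0.45, -0.65 and -0.44 instead of -0.18, -0.16, -0.36 and -0.15. The complex V value rested on ATP5F1E alone: without that gene the log2 change of the sum was 0.22 instead of -0.15. Without COX7C the complex IV change was -0.31 instead of -0.36. Complex II overlapped between FFA and control, and its change of 0.09 turned to -0.20 under median-ratio rescaling.

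**Figure D3:**
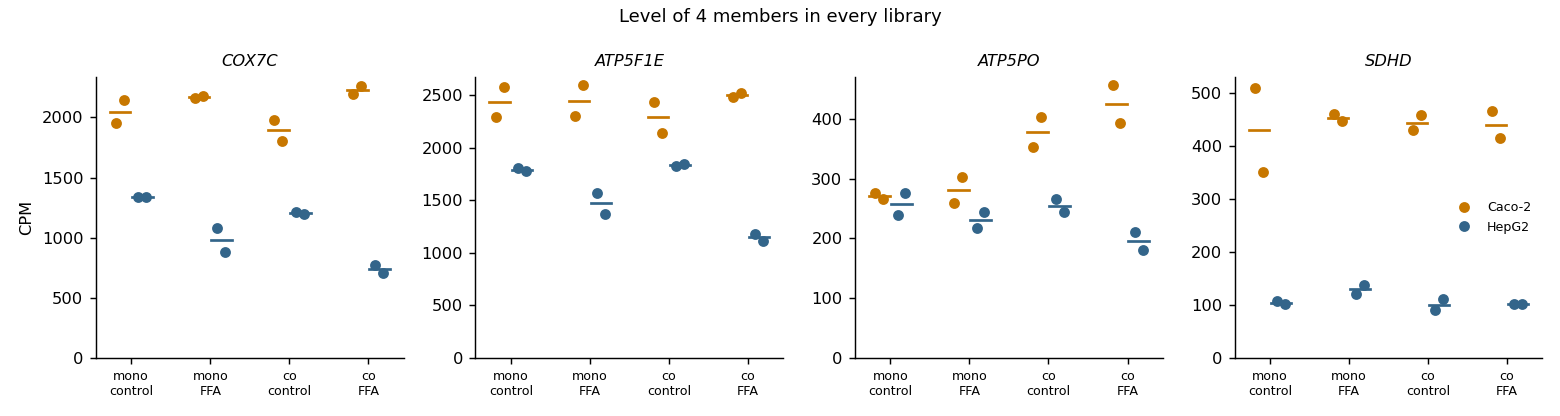
CPM of COX7C, ATP5F1E, ATP5PO and SDHD (y axis, from 0, its own scale in each panel) in every library by culture and treatment (x axis); points are libraries, bars the mean of the 2 replicates, orange Caco-2 and blue HepG2. In HepG2 the 4 FFA libraries lie below the 4 controls for COX7C (705 to 1079 against 1198 to 1337 CPM) and ATP5F1E, ATP5PO is higher in Caco-2 co-culture (353 to 457 CPM) than in Caco-2 mono-culture (259.7 to 304 CPM), and SDHD separates the lines.

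The FFA change in HepG2 moved with the length of the gene's coding sequence. Across the 59 genes, Spearman's rho between the log2 change and the coding length in GENCODE 44 was 0.77, a description over genes that share the same 8 libraries. All 17 members with a coding sequence under 300 nt had a negative change, with a median of -0.37. All 9 members of 1000 nt or more had a positive change, with a median of 0.36. The 2 classes between them, 300 to 500 nt and 500 to 1000 nt, had medians of -0.27 and -0.06 over 16 and 17 members. The same order held over all 1053 genes with a coding length that averaged 100 CPM or more, where rho was 0.52 and the medians of the 4 classes were -0.28, -0.20, 0.07 and 0.32. Complex IV is made of short genes: its median coding length is 253.5 nt, against 433.5 nt in complex I and 766.5 nt in complex V. Among members under 500 nt, the median change was -0.31 over 17 genes of complex I, -0.32 over 5 of complex III and -0.32 over 9 of complex IV. These 3 values, averaged over culture, are close to each other. Taken by culture, the medians for complexes I, III and IV were -0.13, -0.32 and -0.16 in mono-culture. In co-culture they were -0.35, -0.32 and -0.58, with complex IV the lowest. The 1 such member of complex II had 0.17 averaged over culture and the 1 of complex V -0.48. Among members of 500 nt or more, the median was -0.02 over 13 genes of complex I and 0.29 over 4 of complex III. It was -0.11 over 3 of complex II and 0.28 over 5 of complex V, and the 1 member of complex IV had -0.25.

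The libraries themselves differed in the same way. The mean annotated transcript length behind a read was 1821 to 1878 nt in the 4 HepG2 controls, 1933 nt in both mono-culture FFA libraries, and 2068 and 2116 nt in the co-culture FFA libraries. Ribosomal protein genes, which are short, took 25.0% to 26.0% of the reads in the HepG2 controls, 24.2% and 21.3% in mono-culture FFA, and 20.8% and 18.9% in co-culture FFA. In Caco-2 the mean length was 1828 to 1921 nt over all 8 libraries. There rho between the FFA change averaged over culture and coding length was -0.23 over the 59 genes. By culture it was 0.15 in Caco-2 mono-culture and -0.42 in Caco-2 co-culture. Over 1032 genes that averaged 100 CPM or more in Caco-2 it was 0.10 and -0.32. The part of library length composition in the HepG2 result was not tested. Marker sums moved as well. The 12 intestinal markers summed to 227 to 263 CPM in the HepG2 controls, 261 and 324 CPM in mono-culture FFA and 374 and 443 CPM in co-culture FFA, with 6 to 10 of the 12 at 0 in each HepG2 library and CDX1, CDX2, CDH17, GPA33 and MUC13 at 0 in all 8. The 12 hepatocyte markers, none at 0, summed to 44255 to 56970.1 CPM in the controls, 46691 and 54748 CPM in mono-culture FFA and 59124 and 76096 CPM in co-culture FFA. Their part in the HepG2 result was not tested. The 2 HepG2 co-culture FFA libraries were also the shallowest, with 147096 and 49634 reads.

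**Figure D4:**
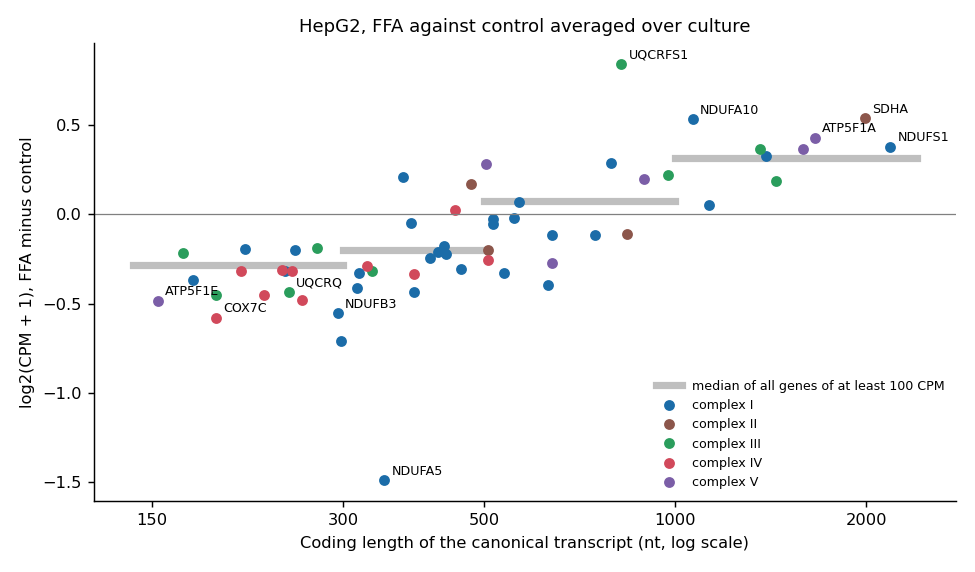
Change with FFA in HepG2 on log2(CPM + 1), averaged over culture (y axis), against coding length in nt on a log scale (x axis), for the 59 genes coloured by complex; grey bars are medians of all genes of at least 100 CPM in 4 length classes. Members under 300 nt lie between -0.71 and -0.19 and members of 1000 nt or more lie above 0; NDUFA5, at 0 reads in 1 FFA library, is the lowest point.

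The count test gave a different number of calls here. With edgeR on the recovered reads, 28 of the 59 were called lower with FFA in HepG2 and none higher, against 13.3% of the 4030 genes it tested. These 28 were 12 members of complex I, 5 of complex III, 9 of complex IV and 2 of complex V, and COX7C had an edgeR log2 change of -0.74 and an adjusted p of 0.000142. Its scaling placed the median of genes that averaged 100 CPM or more at -0.16, against 0.01 in the limma fit, and the median of the 59 was -0.39 against -0.20. Dropping HepG2 co-culture FFA replicate 1 raised the limma count from 0 to 13, and the remaining co-culture FFA value then rested on the 49634 reads of replicate 2.

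In Caco-2, co-culture with HepG2 went with a higher level of 1 of the 59 genes, ATP5PO. ATP5PO, the stalk subunit that links the catalytic head of the ATP synthase to its membrane part, was at 276 and 266 CPM in the mono-culture controls and 259.7 and 304 CPM in mono-culture FFA. In co-culture it was at 353 and 404 CPM in the controls and 457 and 393 CPM with FFA. The 4 co-culture libraries lay above the 4 mono-culture libraries, and the change was 0.53 log2 units (SE 0.11, limma adjusted p = 0.0478). ATP5PO was the 1 member of 59 that was called, against 0.453% of 15454 genes tested. With other settings more were called: 5 with no filter, 7 with a minimum of 10 CPM, 7 with the replicate block and 6 with edgeR, where 0.885%, 4.97%, 1.36% and 8.47% of all genes were called. The ATP5PO call was lost with a pseudocount of 0.1, median-ratio rescaling or a constant prior variance, and on leaving out any 1 of the 8 libraries other than co-culture FFA replicate 2. Over the 16 alternatives it was lost in 10, with adjusted p from 0.00541 to 0.422, while the change stayed between 0.44 and 0.59.

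NDUFB2, a small accessory subunit of complex I, was at 189, 153, 163 and 148 CPM in the 4 mono-culture libraries and 236, 223, 297 and 224 CPM in the 4 co-culture libraries. The groups did not overlap, and the change was 0.58 log2 units (SE 0.13, limma adjusted p = 0.0787). SDHC was at 57.5, 47.0, 64.3 and 54.6 CPM in mono-culture and 83.2, 98.9, 133 and 81.3 CPM in co-culture, with a change of 0.80 (SE 0.19, limma adjusted p = 0.0905). ATP5F1D, the delta subunit of the ATP synthase, had the opposite sign, with a change of -0.74 (SE 0.27, limma adjusted p = 0.305) and groups that did not overlap. Its level was low, at 14.1 to 35.6 CPM over the Caco-2 libraries. It rested on 13, 28, 11 and 16 reads in mono-culture and 12, 5, 16 and 14 reads in co-culture.

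At an unadjusted p under 0.05, 14 of the 59 were higher in Caco-2 co-culture, against 8.41% of all genes tested and 178 of the 1143 genes that averaged 100 CPM or more. ATP5F1D was the 1 member lower, against 3.37% of all genes. Of the 14, 9 were in complex I, 3 in complex V, 1 in complex II, 1 in complex III and 0 in complex IV. By sign, 29 of 30 complex I members were positive, against 5 of 10 in complex IV and 5 of 9 in complex III. Every member of complex II was positive too, and in complex V all but ATP5F1D and ATP5F1E. The complex I sum was 7168 to 7824 CPM in mono-culture and 7850.4 to 9245 CPM in co-culture, without overlap and higher by 14.8%. The complex IV sum was higher by 0.638% with overlapping groups. Under median-ratio rescaling 7 of the 59 were higher and 2 lower at that threshold and 23 of 30 complex I members were positive, and with edgeR 9 were higher, 1 lower and 25 of 30 positive. Under median-ratio rescaling the log2 change of the complex I sum was 0.10 instead of 0.20, and that of complex IV turned from 0.01 to -0.09.

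The subunits of the same complexes that are encoded by the mitochondrial genome were examined beside them. In Caco-2, averaged over treatment, all 13 of them had a positive change with co-culture, with a median of 0.84. Of these, 7 were called, against the same 0.453% of all genes. MT-CO2, a core subunit of complex IV, changed by 1.304 (SE 0.17, limma adjusted p = 0.00217), MT-ND1 of complex I by 1.22 and MT-CYB of complex III by 0.99. The nuclear subunits of the same complexes had medians of 0.00078 in complex IV, 0.21 in complex I and 0.02 in complex III. This difference between the 2 sets was not tested. Without FFA the co-culture changes of MT-CO2, MT-ND1 and MT-CYB were 1.57, 1.496 and 1.49 (limma adjusted p = 0.0126, 0.0086 and 0.00517). With FFA they were 1.04, 0.95 and 0.501 (limma adjusted p = 0.17, 0.17 and 0.562), and MT-ND4 changed by -0.13. In Caco-2 mono-culture MT-ND4 was higher with FFA by 0.94 (limma adjusted p = 0.0105), the 1 gene of 15454 called there. Its interaction of FFA and culture was -0.95 (limma adjusted p = 0.22). In HepG2, averaged over treatment, all 13 had a negative change with co-culture, from -0.67 to -0.17 with a median of -0.43. There limma called 0 of the 13, with 8 at an unadjusted p under 0.05, and edgeR called 7. The averaged signs of both lines held under median-ratio rescaling, quantile normalization and edgeR for every one of the genes tested. The co-culture effect of HepG2 minus that of Caco-2, a contrast added after the data had been seen, was called for 8 of the 13, against 0.0969% of 17544 genes. With a constant prior variance 0 of the 13 were called in either line or between them. The study's methods describe discarding mRNA-seq reads that map to the mitochondrial genome, without naming the platform. In the files such genes took 0.312% to 2.96% of the reads. Hepatocyte markers, taken as a sum over 12 genes, were at 9296 to 10987 CPM in Caco-2 mono-culture and 12201 to 13166 CPM in Caco-2 co-culture, and at most 2 of the 12 were at 0 in a Caco-2 library. The intestinal markers summed to 996 to 1123 CPM in mono-culture and 1099.5 to 1286 CPM in co-culture. Their part in the Caco-2 result was not tested.

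**Figure D5:**
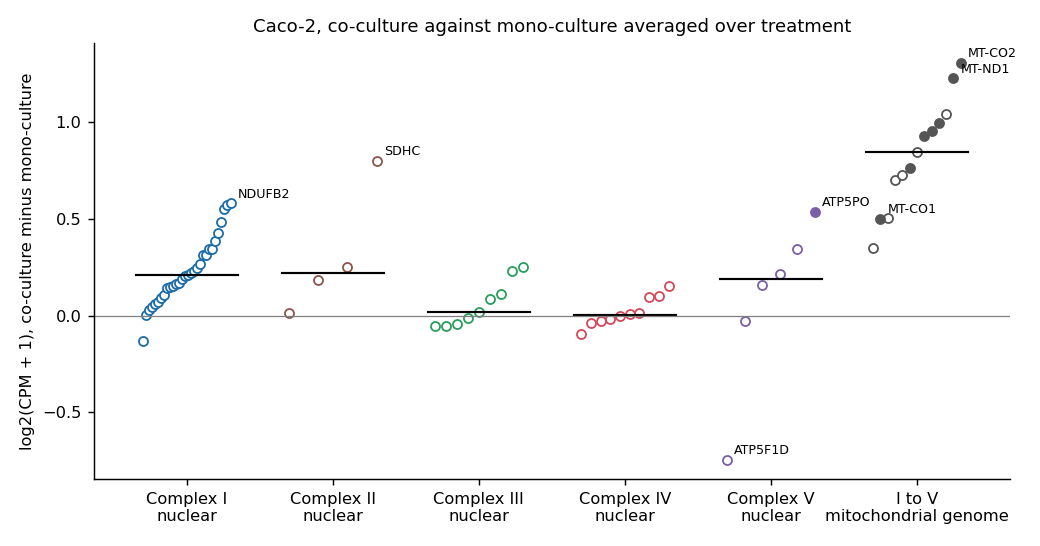
Change with co-culture in Caco-2 on log2(CPM + 1), averaged over treatment (y axis), for the 59 nuclear genes by complex and for the 13 subunits of the mitochondrial genome (x axis), ordered by value; filled points had a limma adjusted p under 0.05, open points did not, and black bars are medians. ATP5PO is the filled nuclear point, at 0.53, and 7 mitochondrial points are filled.

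In the comparisons that follow none of the 59 was called by limma except ATP5PO above, so counts at an unadjusted p under 0.05 follow. For FFA in Caco-2 they were 2 of the 59 in mono-culture, 4 in co-culture and 3 averaged over culture. The shares of all genes tested were 5.8%, 4.88% and 4.85% at that threshold, and 0.00647%, 0% and 0% after adjustment. For Caco-2 co-culture taken separately they were 18 without FFA and 10 with FFA, against 10.3% and 7.78% of all genes, and 0.0971% of genes after adjustment in both cases. Averaged over treatment the shares were 11.8% of all genes and 15 of the 59. For the interaction of FFA and culture in Caco-2 it was 3 of the 59, against 5.02% of all genes and 0% after adjustment. Caco-2 COX7C, NDUFS8 and UQCRC2 had the smallest p for FFA among members of their complexes with a mean of at least 100 CPM, with log2 changes of 0.16, 0.26 and -0.33 and limma adjusted p of 0.829 for each.

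For FFA in HepG2 the counts at an unadjusted p under 0.05 were 6 of the 59 in mono-culture and 23 in co-culture, against 6.26% and 15.9% of all genes tested. Averaged over culture the count was 24, against 13.8%. After adjustment the shares of all genes were 0% in mono-culture and 0% in co-culture. For HepG2 co-culture the counts were 0 without FFA, 12 with FFA and 9 averaged, against 2.61%, 14.7% and 7.72% of all genes, and 0% after adjustment in each. COX6B1, a subunit of complex IV, had the smallest p of complex IV for HepG2 co-culture, changing by -0.32 on the log2 scale (SE 0.10, limma adjusted p = 0.618). The interaction of FFA and culture in HepG2 gave 6 of the 59, against 6.94% of all genes and 0% after adjustment. By edgeR, members called were 19 for FFA in HepG2 co-culture, 1 for HepG2 co-culture averaged over treatment, 3 for Caco-2 co-culture with FFA and 6 for Caco-2 co-culture averaged over treatment. Of all genes edgeR tested there, 7.99%, 1.17%, 3.85% and 8.47% were called, so the 3 and the 6 of 59 in Caco-2 lie near the background. Apart from the 28 given above, edgeR called 0 members in the other comparisons within a line.

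The difference between the lines in the FFA effect was tested directly in the 16-library fit, in contrasts added after the data had been seen. In co-culture the lines share circulating medium in the study's chip. Which libraries came from the same chip is not given in the labels, and the fit treats all 16 as independent. The same holds for the co-culture contrast between the lines above. Averaged over culture, the HepG2 effect minus the Caco-2 effect was -0.74 for COX7C (SE 0.10, limma adjusted p = 0.0106) and -0.55 for ATP5F1E (limma adjusted p = 0.0499). These were 2 of the 59, against 0.0912% of 17544 genes. In co-culture alone COX7C differed by -0.94, ATP5F1E by -0.81 and COX6B1 by -0.90, and these were 3 of the 59, against 0.422% of all genes. In Caco-2 itself COX7C was at 1957 and 2142 CPM in the mono-culture controls and 2159 and 2176 CPM with FFA, and at 1983 and 1806 CPM in the co-culture controls and 2192 and 2258 CPM with FFA. All 3 genes have a coding sequence under 300 nt. Over the 59 genes, Spearman's rho between the difference and coding length was 0.73 averaged over culture and 0.65 in co-culture. Over 1089 genes that averaged 100 CPM or more it was 0.47 and 0.48. Among those genes, the ones under 300 nt had medians of -0.33 and -0.44. The part of coding length in these differences was not tested. Each of these calls was lost with a constant prior variance and on leaving out HepG2 co-culture control replicate 2 or HepG2 mono-culture control replicate 1, where adjusted p was 0.0536 to 0.144. The averaged call of ATP5F1E was also lost with the replicate block (limma adjusted p = 0.0552) and with no filter (limma adjusted p = 0.0569).

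Related genes from lists fixed for this description gave the following. Of 23 other nuclear subunits of the complexes and near relatives, 11 were lower and 0 higher with FFA in HepG2 at an unadjusted p under 0.05, with a median log2 change of -0.28. The shares of all genes at that threshold were the 7.06% lower and 6.76% higher given above. Of 46 assembly factors, 4 were lower and 0 higher, near that share, with a median of -0.07. In the other direction, 5 of 7 ADP/ATP carriers, phosphate carriers and porins and 3 of 13 tricarboxylic acid cycle enzymes were higher and none lower, with medians of 0.39 and 0.31. None of these passed after adjustment. The 3 of 13 is near the share higher among genes that averaged 100 CPM or more, given above. With FFA in HepG2, such genes had medians of 0.07 for coding sequences of 500 to 1000 nt and 0.32 for longer ones. The part of coding length in these list counts was not tested. Of 11 tested regulators of respiratory gene expression, such as PPARGC1A and NRF1, 0 passed at the unadjusted threshold. With co-culture in Caco-2, the enzyme SUCLG1 of the tricarboxylic acid cycle was the 1 gene of these 5 lists that was called, changing by 0.68 on the log2 scale (SE 0.11, limma adjusted p = 0.0141). Pseudogene copies that share a member's symbol held reads as well. Of 126 such copies, 25 had a read, and their sum was 60.5 to 275 CPM per library, at most 1.09% of the sum of the 59 genes, and how reads were split between copies and members such as COX6A1 and SDHA is uncertain.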

How the data were processed

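RNA was sequenced as Nanopore cDNA reads in 16 libraries. Per the submitters' processing notes, minimap2 2.22 was used for the Nanopore reads. The study's methods describe, for mRNA-seq reads of no named platform, the discarding of reads from rRNA, tRNA or the mitochondrial genome, then STAR and RSEM. Whether this applied to these libraries is not given in the sources used here, and genes of the mitochondrial genome have reads in all 16. The authors deposited gene values named TPM that are CPM: whole reads were recovered from 99.6% to 100% of values (tolerance 0.1 reads), with no length term. Depth was 49634 to 1657430 reads per library. Reads carried no molecular identifiers that the sources state, so a read is not an independent molecule.

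Groups came from the labels. Genes with a group mean of at least 1 CPM were tested on log2(CPM + 1) with limma 3.58.1 (R 4.3.3; group means, trended prior variance) within each line and over all 16 libraries, with Benjamini-Hochberg adjustment over all genes tested and a threshold of 0.05. Fold changes on this scale understate changes of low genes. edgeR 4.0.16 quasi-likelihood tests on the recovered reads were an alternative and called 389 genes for Caco-2 co-culture averaged over treatment. Other alternatives were the pseudocount, the filter, 2 rescalings, the prior variance, the replicate block and leaving out each library. The scripts were tested on simulated data. The study's methods give at least 2 independent experiments for mRNA-seq, without naming libraries. The labels do not say that replicates came from separate cultures, so p-values measure the spread between these samples, which may be technical.

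The members and the gene lists were chosen with earlier results of these data known. Genes named were 10 with fixed roles, every member called within a line, in each complex the member of at least 100 CPM with the smallest p in each averaged FFA and co-culture contrast, and the member of at least 100 CPM with the largest difference between lines. Other members were named after their values were seen, among them NDUFA9, NDUFA10, NDUFA11, NDUFA13, NDUFB9, SDHC, COX5B and ATP5F1D. Coding lengths (GENCODE 44) and the tests of the line difference in the FFA and co-culture effects were also added after the data were seen.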

Additional observations from a re-analysis of the deposited data

Results flagged for a closer look

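In the 16-library limma fit the FFA effect differed between the lines for 3 genes by a test of the difference itself. All 3 have a coding sequence under 300 nt. Over the 59 genes the difference went with coding length, with Spearman's rho of 0.73 averaged over culture and 0.65 in co-culture. The part of coding length was not tested. Averaged over culture, the HepG2 effect minus the Caco-2 effect was -0.74 for COX7C (limma adjusted p = 0.0106) and -0.55 for ATP5F1E (limma adjusted p = 0.0499). In co-culture it was -0.94 for COX7C (limma adjusted p = 0.0172), -0.81 for ATP5F1E (limma adjusted p = 0.0271) and -0.90 for COX6B1 (limma adjusted p = 0.0421). With a constant prior variance the adjusted p of these 5 differences was 0.348 to 0.522. For ATP5F1E averaged over culture it was 0.0552 with the replicate block and 0.0569 with no filter. For the 13 subunits of the mitochondrial genome the co-culture effect of HepG2 minus that of Caco-2 had a median of -1.18, and 8 of the 13 passed the limma test of the difference.

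For 4 sums every library of one line moved one way and every library of the other line the opposite way, and the difference was not tested. On the log2 scale, HepG2 minus Caco-2, the FFA effect in mono-culture differed by -0.19 for complex I. The FFA effect in co-culture differed by -0.33 for complex III and -0.64 for complex IV. The effect of co-culture with FFA present differed by -0.39 for complex IV. The HepG2 values rest in part on the co-culture FFA libraries of 147096 and 49634 reads. Complex IV is made of short genes, as given above, and the part of coding length in these differences was not tested.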

How the results depend on the processing

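Counts are members called of 59, 0 in the limma fit unless given, with the share of all genes called under that setting in brackets. For Caco-2 co-culture averaged over treatment (1 in the limma fit), the count was 0 with a pseudocount of 0.1, median-ratio rescaling or a constant prior variance, 5 with no filter (0.885%), 7 with a minimum of 10 CPM (4.97%), 6 with edgeR (8.47%), and 0 to 4 on leaving out 1 library. The replicate block gave 7 there (1.36%). Whether same-numbered libraries share a batch is not given in the labels. Over genes of at least 100 CPM their deviations correlated from -0.02 to 0.29 in Caco-2 and from -0.10 to 0.12 in HepG2. For Caco-2 co-culture with FFA the count was 3 with edgeR (3.85%) and 0 to 1 on leaving out 1 library. It was 0 to 1 on leaving out 1 library for Caco-2 FFA in co-culture, FFA averaged over culture and the interaction. For HepG2 FFA in co-culture it was 1 with a pseudocount of 0.1 (0.326%), 5 with quantile normalization (0.707%), 8 with median-ratio rescaling (0.575%), 19 with edgeR (7.99%) and 0 to 16 on leaving out 1 library. For HepG2 FFA averaged over culture it was 2 with a minimum of 10 CPM (0.562%), 2 with quantile normalization (0.534%), 6 with median-ratio rescaling (0.367%), 28 with edgeR (13.3%) and 0 to 13 on leaving out 1 library. For HepG2 co-culture with FFA it was 1 with quantile normalization (0.277%) and 0 to 10 on leaving out 1 library. For HepG2 co-culture averaged over treatment it was 1 with edgeR (1.17%) and 0 to 4 on leaving out 1 library, and for the HepG2 interaction 0 to 4. The highest HepG2 counts came without co-culture FFA replicate 1, which leaves the 49634 reads of replicate 2. The causes were not tested.

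The sign of NDUFS1 between the lines (0.01) turned with quantile normalization (-0.059), median-ratio rescaling (-0.12) and edgeR (-0.055), and ran from -0.082 to 0.11 on leaving out 1 library. The sign of SDHD with FFA in HepG2 (0.17) turned with quantile normalization (-0.048), median-ratio rescaling (-0.12) and edgeR (-0.0056). With FFA in Caco-2 SDHD (0.04) ran from -0.090 to 0.18 on leaving out 1 library. Over the named genes, 574 values kept their direction and their side of the threshold, 17 fell short of it, 29 passed it and 12 turned.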
